A study of Homo sapiens with 12 samples.

Results

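The genes described here encode RNA helicases and splicing factors: the DDX and DHX helicases, the HNRNP proteins, the SRSF proteins and the SF3 subunits of the spliceosome. They were chosen by symbol (DDX or DHX with a digit after it, HNRNP, SRSF or SF3) and by having an N6-methyladenosine (m6A) peak in at least 1 of 6 deposited peak lists. The rule found 74 genes of the 10536 genes with a peak: 31 DDX, 14 DHX, 17 HNRNP, 7 SRSF and 5 SF3 genes. Protein-coding genes make up 72 of them. The others are the long noncoding RNA DDX11-AS1 and the read-through gene HNRNPUL2-BSCL2, whose peaks have the places of those of HNRNPUL2, so that this locus counts as 2 genes.

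The samples were 143B cells, an established human osteosarcoma line, 48 h after transfection with siRNA against ALKBH5, which removes the methyl group from m6A, or with scrambled siRNA. MeRIP-seq, which sequences the RNA fragments that an m6A antibody retains, gave 3 immunoprecipitates per siRNA. The 6 input samples were not analysed here. The replicate number also marks the method in the labels' protocol: replicates 1 and 3 used polyadenylated RNA with different antibodies, and replicate 2 used total RNA with a kit and another antibody, although a separate label field gives the replicate 1 antibody for all of them. Nothing in the labels says that the numbers were separate cultures, so p-values measure only the spread between these libraries, which may be technical, and all of them come from 1 cell line.

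DEAD-box (DDX) and DEAH-box (DHX) proteins use ATP to unwind RNA or to strip proteins from it, and drive steps of splicing, ribosome assembly, export, translation and decay. SR proteins bind exons and recruit the spliceosome. HNRNP proteins coat new transcripts and often act against SR proteins in the choice of exons, and SF3A and SF3B are parts of the U2 particle that binds the branch point. m6A is placed on nascent RNA, is enriched in long internal exons and near stop codons, and is read by proteins that act on splicing, export and decay.

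A call means at least 1 peak with the gene's number in the list of that library. The lists hold no read counts, so the depth behind them is unknown. In these bulk libraries a missing call cannot be told apart from less RNA, and fewer cells with a transcript and less RNA per cell cannot be told apart either. ALKBH5 itself was called in 0 of 3 knockdown and 2 of 3 control libraries, which is no measure of its RNA level. Of the markers of bone and mesenchyme looked up, TWIST1 was called in 6 libraries, RUNX2 in 5 and COL1A1 in 3, while SP7, COL1A2, ALPL, SPARC and VIM were called in 0, as were EPCAM, CDH1, KRT8 and KRT18 of epithelium and PTPRC, CD3E and SPI1 of blood.

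A larger share of the listed coding genes had a peak in each helicase family than in each splicing factor family. Of the coding genes that a RefSeq gene table lists, 14 of 16 DHX genes (87.5%) and 30 of 38 DDX genes (78.9%) had a peak in at least 1 list. The shares were 61.5% for HNRNP (16 of 26), 58.3% for SRSF (7 of 12) and 55.6% for SF3 (5 of 9). Over all coding genes of the table, expressed or not, it was 48.6% (9740 of 20056). Coding genes with no peak in any list included SRSF1, SRSF2, SRSF3 and SRSF7, which are classical SR proteins, the HNRNP proteins HNRNPA1, HNRNPA2B1, HNRNPD and HNRNPK, the helicases DDX5 and DHX9, and the spliceosome subunits SF3A1, SF3A2, SF3B2 and SF3B6. They also included HNRNPCL1, HNRNPCL2, HNRNPCL3, HNRNPCL4 and HNRNPA1L3, and the helicases DDX3Y, DDX4, DDX25 and DDX53. The family shares count every listed gene, expressed or not, and expression was not measured here. HNRNPA1L2, a copy of HNRNPA1 made by reverse transcription, was called in 4 libraries while HNRNPA1 was called in 0. How the authors' counting split reads between such near copies is not known, so the peaks of HNRNPA1L2, and those of the neighbouring copies DDX19A and DDX19B, are uncertain in their gene.

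Of the 74 genes, 60, 29 and 58 were called after ALKBH5 siRNA in replicates 1, 2 and 3, and 41, 28 and 58 in the matching controls. As shares of the 74 these were 81.1, 39.2 and 78.4% and 55.4, 37.8 and 78.4%, beside 78.5, 32 and 86.6% and 66.5, 31.4 and 88.2% of all genes with a peak. The share of these genes was below that of all genes in control replicate 1 and in both libraries of replicate 3, and above it in the other lists. They carried 89, 37 and 83 peaks in the knockdown lists and 65, 36 and 89 in the control lists. The lists of replicate 2 were the shortest over all genes (5917 and 5677 peaks, against 15139 to 18724 in the others). In total, 36 of the 74 genes (48.6%) were called in a list of replicate 2, against 39.4% of all genes with a peak. SF3B1, the subunit that contacts the branch point, was the 1 gene of the 36 with no peak outside replicate 2: a single peak of 61 nt in control replicate 2. That is 2.78% of the 36, beside 0.579% of all genes called in replicate 2.

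**Figure D1:**
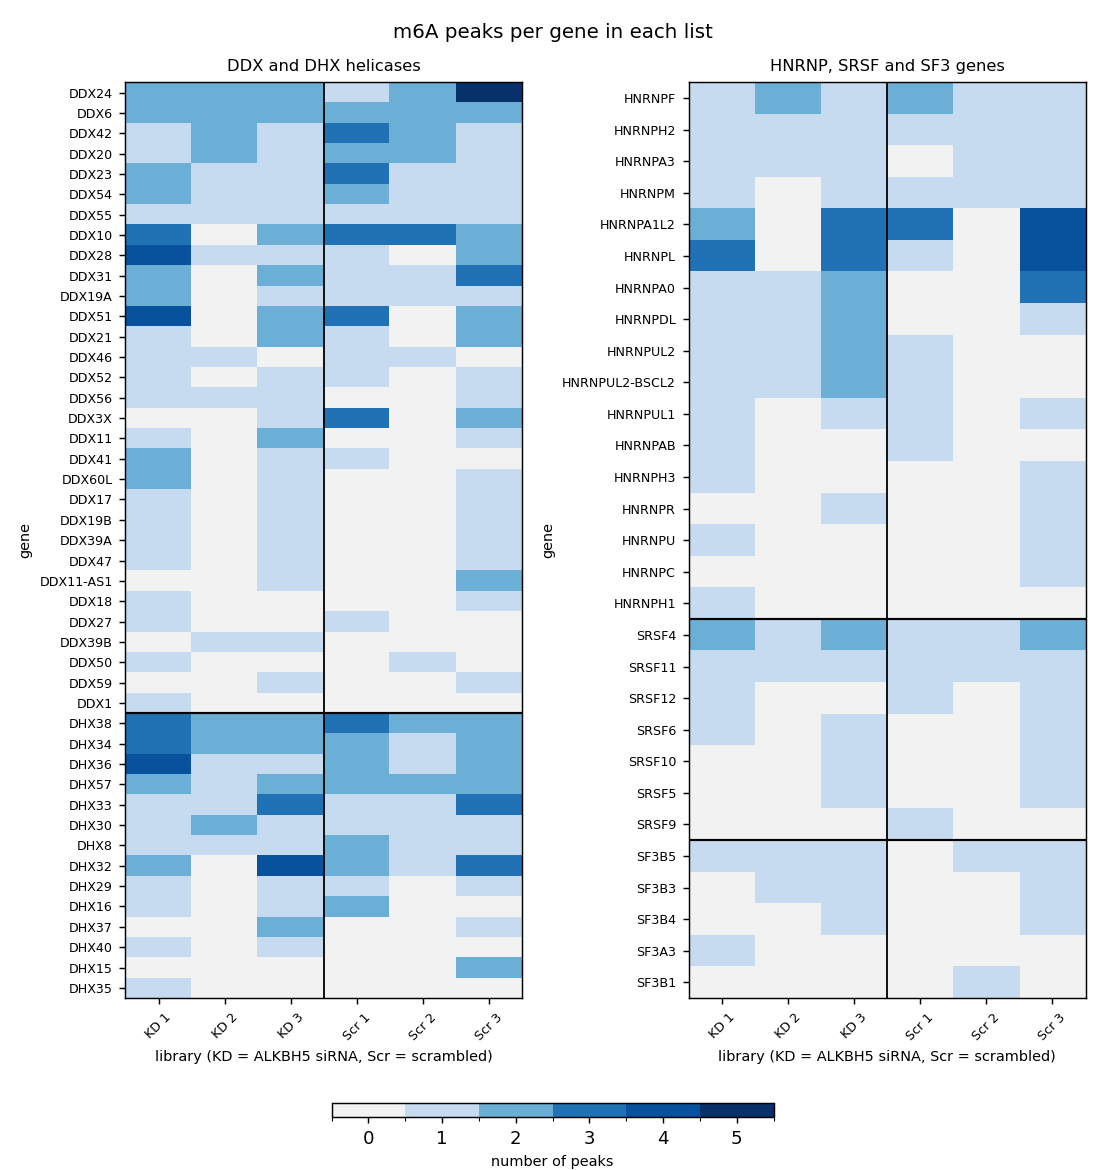
Number of m6A peaks (colour, 0 to 5) of each of the 74 genes (rows, by family, separated by horizontal lines) in each of the 6 lists (columns, KD for ALKBH5 siRNA and Scr for scrambled siRNA). The 18 genes called in all 6 libraries stand at the top of their families, the column pair of replicate 2 is the emptiest, and DDX24 in control replicate 3 has 5 peaks.

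A core of 18 genes was called in all 6 libraries, 24.3% of the 74, beside 23.3% of all genes with a peak. Without both libraries of replicate 2 it was 31 genes, a count that was not made over all genes. The core held 7 of 31 DDX genes, 7 of 14 DHX genes, 2 of 17 HNRNP genes (HNRNPF and HNRNPH2), 2 of 7 SRSF genes (SRSF4 and SRSF11) and 0 of 5 SF3 genes. At the other end, 8 genes (10.8%) were called in 1 library only, against 12.9% of all genes: DDX1, DHX15, DHX35, HNRNPC, HNRNPH1, SRSF9, SF3A3 and SF3B1. The weakest of these was HNRNPC, with 1 peak of 61 nt whose score ranked at percentile 0.604 of its list, where 100 is the best.

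**Figure D2:**
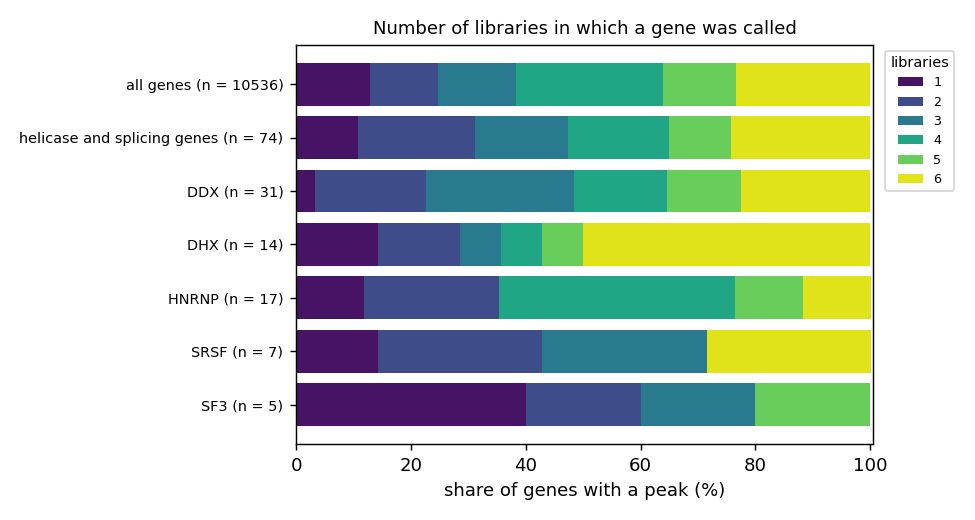
Share of genes with a peak (%, horizontal axis) by the number of libraries, 1 to 6, in which they were called (colours), for all genes, all helicase and splicing genes and each family. The share called in all 6 libraries is 50% for DHX genes, 24.3% for the 74 genes and 23.3% for all genes.

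Most of these genes had 1 peak site. Same-strand peaks with at least 1 bp in common, from any list, were joined into regions, which gave 124 for the 74 genes. A single region was found for 43 genes (58.1%, against 47.2% of all genes), and 15 genes (20.3%, against 25.4%) had 3 or more. Each of the 7 SRSF and 5 SF3 genes had 1 region, while DHX32, DHX33, DHX36, HNRNPA1L2 and HNRNPL had 4. Of the 124 regions, 18 (14.5%) were called in all 6 libraries, beside 12.7% of all regions, and 36 (29%) in 1 library, against 28.9%. Regions with more than 1 exon block, which span a splice junction, were 46 of the 124 (37.1%), against 24.3% of all regions. By family they were 44.2% of DDX, 40.6% of DHX, 32.1% of HNRNP, 14.3% of SRSF and 0% of SF3 regions. Of these genes' single peaks, 25.8, 5.41 and 28.9% in the knockdown lists (by replicate number) and 27.7, 11.1 and 23.6% in the control lists spanned a junction, above the value over all peaks in each list. Those values were 14.4, 4.51 and 17.3% and 11.3, 4.1 and 14.2%. In replicate 2 the shares of these genes rest on 2 of 37 knockdown and 4 of 36 control peaks. Peak length was close to that of the lists, with medians of 238, 151 and 329 nt in the knockdown (269, 151 and 331 nt over all peaks) and 181, 180 and 330 nt in the control (209, 151 and 331 nt).

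Among the helicases of the spliceosome, DDX23, which hands the 5′ splice site from U1 to U6, had strong peaks in every library. Its covered exon length, the union of its peaks' exon blocks, was 1080, 210 and 810 nt in the knockdown lists (always in the order of the replicate numbers), against 662, 240 and 750 nt for scrambled siRNA. The best peak of DDX23 ranked between percentile 85.4 and 99.2 of its list. Its region on chromosome 12 at 49223569 to 49224378 (hg19, minus strand) was called in all 6 libraries, and all 6 shared the 210 nt at 49223779 to 49223988.

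DHX38, which acts before the second step of splicing, had 2 regions called in all 6 libraries, as had DDX6 alone of the other members. The DHX38 regions lay on the plus strand of chromosome 16 at 72127884 to 72132619 (5 blocks) and at 72146333 to 72146811. No base of the first was covered in every library, while 121 nt of the second were. DHX38 peaks covered 1527, 271 and 688 nt in the knockdown and 869, 391 and 719 nt in the control, so the knockdown value was the higher one in replicate 1 only. DHX8, which frees spliced mRNA from the spliceosome, covered 627, 120 and 835 nt against 538, 359 and 687 nt, with a region of 835 nt of exon on chromosome 17 (41601117 to 41604134, plus strand).

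DDX42, a partner of SF3B1, covered 780, 302 and 929 nt in the knockdown and 543, 271 and 869 nt in the control. DDX46, which acts on the U2 particle, was called in replicates 1 and 2 of both conditions and in neither library of replicate 3. Its peaks covered 389 and 181 nt against 389 and 151 nt. DHX16, which is needed for the first step of splicing, and DHX15, which takes spliceosomes apart, were called in 3 libraries and in 1.

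Of the helicases of ribosome assembly, DDX10 covered 811, 0 and 870 nt in the knockdown and 722, 333 and 780 nt in the control, over 3 regions on chromosome 11. DDX24 covered 776, 567 and 1581 nt against 269, 181 and 1434 nt, and DDX54 covered 359, 210 and 358 nt against 240, 180 and 328 nt. In both genes the knockdown value was the higher one in each pair, and the groups overlapped. DDX55 covered 330, 150 and 569 nt against 329, 270 and 599 nt, nearly equal in replicate 1 and shorter in the knockdown in the others. DDX56 covered 120, 150 and 387 nt in the knockdown and 0, 0 and 358 nt in the control, in 1 region on chromosome 7 (44605284 to 44605670, minus strand). DDX51, DDX31, DDX21, DDX52 and DDX47 were called in 3 to 5 libraries each, and DDX18 in 2.

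DDX28 and DHX30, helicases that help to build the ribosome of mitochondria, had long peaks. DDX28 covered 1256, 270 and 1402 nt in the knockdown and 865, 0 and 1164 nt in the control. Nearly all of it lay in a single block of 1402 nt on chromosome 16 (68055266 to 68056667, minus strand). DHX30 covered 811, 332 and 1021 nt against 631, 121 and 691 nt. The 121 nt at 47887853 to 47887973 of chromosome 3 (plus strand) were covered in all 6 libraries.

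DDX6, DHX34 and DHX36, helicases that act on mRNA in decay or translation, were called in all 6 libraries. DDX6, a repressor of translation that joins decapping factors in P-bodies, had exactly 2 peaks in each library. They lay in 2 regions on the minus strand of chromosome 11, at 118622270 to 118622778 and 118656799 to 118661823. DDX6 peaks covered 900, 331 and 840 nt in the knockdown and 510, 390 and 1019 nt in the control. DHX34, which takes part in nonsense-mediated decay, covered 868, 300 and 1224 nt against 598, 150 and 986 nt. Its second region, on chromosome 19 at 47885246 to 47885574 (plus strand), had a call in each knockdown library and in 1 control. DHX36, which unwinds G-quadruplexes, covered 809, 151 and 418 nt against 212, 269 and 569 nt, higher in the knockdown in replicate 1 and lower in the others.

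DDX3X, a helicase of translation initiation encoded on the X chromosome, covered 0, 0 and 300 nt in the knockdown and 303, 0 and 451 nt in the control. The stretch from 41193991 to 41197004 had calls in 2 controls and 0 knockdown libraries. DDX20, a member of the SMN complex that assembles spliceosomal particles, covered 1077, 420 and 1226 nt in the knockdown and 898, 988 and 1345 nt in the control, on chromosome 1 at 112308467 to 112309811 (plus strand), with its best peak between percentile 77.7 and 98.7. The knockdown value was the higher one in replicate 1 and the lower one in replicates 2 and 3, and the groups overlapped.

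For the export helicases, DDX39B was called in knockdown replicates 2 and 3 (61 and 90 nt) at separate sites and in 0 controls. DDX39A, its close relative, was called in knockdown replicates 1 and 3 and control replicate 3 (239, 448 and 359 nt). DDX19A, one of the paired copies of a helicase of the nuclear pore, covered 811, 0 and 1110 nt in the knockdown and 301, 91 and 810 nt in the control.

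Of the HNRNP genes, HNRNPF and HNRNPH2, which bind runs of G, were called in all 6 libraries. HNRNPF covered 716, 329 and 1134 nt in the knockdown and 180, 180 and 1163 nt in the control, within 1 block on chromosome 10 (43882168 to 43883360, minus strand). The values were higher in the knockdown in replicates 1 and 2 and nearly equal in replicate 3. HNRNPH2 covered 419, 121 and 749 nt against 151, 240 and 599 nt, and its region is also listed under the read-through gene RPL36A-HNRNPH2. HNRNPL, a regulator of CD45 exons, had 3, 0 and 3 peaks in the knockdown lists and 1, 0 and 4 in the controls. They covered 542, 0 and 692 nt and 61, 0 and 1263 nt.

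HNRNPUL2, HNRNPUL2-BSCL2, HNRNPDL and HNRNPA0 each had calls in 3 knockdown libraries and 1 control. HNRNPDL covered 60, 60 and 361 nt in the knockdown and 270 nt in control replicate 3. HNRNPA0 covered 270, 61 and 571 nt and, in control replicate 3, 722 nt. The control peak of HNRNPUL2 was in replicate 1, where it covered 539 nt and ranked at percentile 99.3, against 569, 61 and 152 nt in the knockdown. HNRNPM, HNRNPC and HNRNPU, abundant HNRNP proteins, were called in 5, 1 and 2 libraries.

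Of the SR genes, SRSF4 and SRSF11 had peaks in every library. SRSF4 covered 540, 150 and 688 nt in the knockdown and 568, 91 and 539 nt in the control, on chromosome 1 at 29474638 to 29475652 (minus strand), and 31 nt were common to all 6 libraries. SRSF11 covered 421, 241 and 211 nt against 421, 241 and 301 nt, equal in the pairs of replicates 1 and 2. SRSF5 and SRSF10 were called only in both libraries of replicate 3, and SRSF12 covered 150, 0 and 0 nt in the knockdown and 180, 0 and 330 nt in the control. In the SF3 family, SF3B5 was called in 5 libraries, with 325, 90 and 561 nt against 0, 60 and 561 nt. Its replicate 2 peaks shared no base between knockdown and control. SF3B3 covered 0, 61 and 331 nt against 0, 0 and 331 nt, SF3B4 was called in both libraries of replicate 3, and SF3A3 covered 120 nt in knockdown replicate 1 alone.

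The comparison of knockdown with scrambled siRNA asked whether treatment with ALKBH5 siRNA changed which of these transcripts carried peaks. In all, 24 of the 74 genes (32.4%) were called in more knockdown than control libraries, beside 26.1% of all genes. Another 11 (14.9%) were called in fewer, beside 17.1% of all genes, and 39 were called equally often. No member had calls in each knockdown library and in no control, or the reverse, which was so for 0.114% and 0.0285% of all genes. The largest differences were those of DDX56, HNRNPUL2, HNRNPUL2-BSCL2, HNRNPDL and HNRNPA0 (3 against 1) and of DDX39B and DHX40 (2 against 0). Several of these knockdown calls were weak. The peaks of DDX39B ranked at percentile 10.9 and 14.9 of their lists, and those of DHX40 at 7.59 and 7.62. Over the 3 knockdown lists the best peak ranked between 13.5 and 69 for DDX56 and between 8.3 and 55.9 for HNRNPUL2. For HNRNPDL it ranked between 2.77 and 38, and for HNRNPA0 between 38.7 and 55.4. Of the genes called in fewer knockdown libraries, DDX19A, DDX31, DDX10, DHX32 and HNRNPM were called in 2 against 3. For each of them the library without a call was knockdown replicate 2, whose list was among the shortest. In replicates 1 and 3 their covered length was equal or longer in the knockdown.

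By family, 11 DDX genes were called in more and 4 in fewer knockdown libraries, 3 and 2 DHX genes, 6 and 2 HNRNP genes, 1 and 2 SRSF genes, and 3 and 1 SF3 genes. The balance differed with the library left out, as a share of the libraries that remained. Only these genes were counted there, so no share over all genes stands beside the next numbers. Without both libraries of replicate 1, 11 genes were called more and 13 less often in the knockdown, and without those of replicate 2 the numbers were 23 and 5. They were 27 and 25 without knockdown replicate 1, 44 and 7 without knockdown replicate 2, and 31 and 25 without knockdown replicate 3. They were 32 and 21 without control replicate 1, 25 and 29 without control replicate 2, and 41 and 13 without control replicate 3.

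By pair, the knockdown list called 19 genes more than its control in replicate 1, 1 more in replicate 2 and 0 more in replicate 3. In replicate 1, 21 genes (28.4%) were gained, with calls after ALKBH5 siRNA but none in the same-numbered control, and 2 (2.7%) were lost, DDX3X and SRSF9. Over all genes the shares were 16.9% gained and 5% lost, so gains exceeded losses in the whole list too. In replicate 2, 8 genes were gained and 7 lost (7.99% and 7.35% of all genes), and in replicate 3, 6 and 6 (6.28% and 7.83% of all genes). The 21 genes gained in replicate 1 were 10 of 31 DDX (32.3%), 6 of 17 HNRNP (35.3%) and 2 of 14 DHX genes (14.3%). The rest were 2 of 5 SF3 (40%) and 1 of 7 SRSF genes (14.3%), beside the 16.9% of all genes. The list of knockdown replicate 1 was longer than that of its control, 17563 against 15139 peaks, and the part of this in the gains was not tested.

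**Figure D3:**
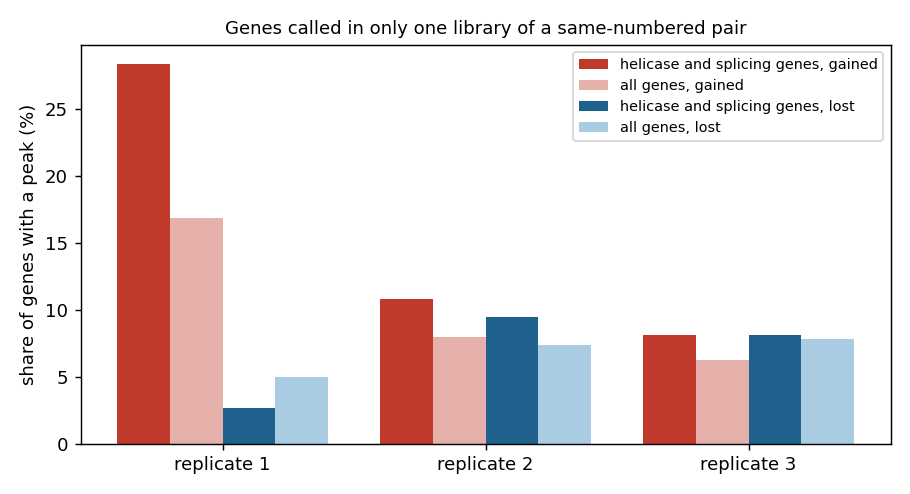
Share of genes with a peak (%) that were called only in the knockdown (gained, red) or only in the control (lost, blue) of each same-numbered pair, for the 74 helicase and splicing genes (dark) and all 10536 genes (light). Gains exceed losses in replicate 1, 28.4 against 2.7% for the helicase and splicing genes and 16.9 against 5% for all genes, and the bars are close to each other in replicates 2 and 3.

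On average 49 ± 17.3 of these genes were called with ALKBH5 siRNA (SD, n = 3) and 42.33 ± 15 with scrambled siRNA (SD, n = 3), 6.67 apart and less than either SD. The libraries of a group differ in RNA type or antibody, so these SDs include that and ignore the pairing. Within pairs the differences, knockdown minus control, were 19, 1 and 0 genes and 24, 1 and -6 peaks. The number of peaks on these genes was 69.67 ± 28.4 against 63.33 ± 26.5 (SD, n = 3 each), a difference of 6.33. That of called genes was 1.17 without knockdown replicate 1, 2.17 without knockdown replicate 3, 16.7 without knockdown replicate 2, 14.5 without control replicate 3 and -0.5 without control replicate 2. That of peaks was -3.33, -0.333, 22.7, 19.2 and -7.33 without the same libraries. Replicates 2 and 3 alone gave differences of 0.5 genes and -2.5 peaks. With libraries left out, these differences were not computed over all genes. Within pairs the covered exon length of all these genes was 1.63, 0.90 and 0.98 times that of the control in replicates 1, 2 and 3, while the whole lists had 1.57, 1.13 and 1.00.

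Of the 18 genes called in all 6 libraries, 6 had a longer covered length in the knockdown of every pair (33.3%, beside 34.1% of all genes called in 6 libraries) and 0 had a shorter one (beside 2.08%). They were DDX24, DHX30, DHX34, DHX33, DDX54 and DDX42. DDX24 had the largest mean log2 ratio within pairs of these 6, 1.11, with ratios of 2.88, 3.13 and 1.10. Its mean was 974.7 ± 535 nt in the knockdown and 628 ± 699 nt in the control (SD, n = 3), a difference of 346.7 nt (two-sided exact permutation test, p = 0.5). DHX30 had ratios of 1.29, 2.74 and 1.48 and a difference of 240.3 nt (exact permutation test, p = 0.4). DHX34 had ratios of 1.45, 2.00 and 1.24 and DHX33, a helicase of ribosome assembly, 2.00, 1.15 and 1.13. DDX54 and DDX42 had their smallest ratios in replicate 3, 1.09 and 1.07. In all 6 genes the groups overlapped.

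Since the list of knockdown replicate 1 covered 1.57 times the length of its control over all genes, these ratios were also set against those of the whole lists. DDX24 and DHX33 were above the list's ratio in every pair (2 of 18 genes, 11.1%, beside 14.6% of all genes called in 6 libraries). DDX20, DDX55 and SRSF11 were below it in every pair (3 of 18, 16.7%, beside 16.8%). The difference of DDX42 turned to -2.78 nt per 1000000 nt of the list under this scaling. The median log2 ratio over the 18 genes was 0.64, -0.10 and 0.12 in replicates 1, 2 and 3, against 0.53, 0.11 and 0.06 over the 2452 genes called in all 6 libraries.

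**Figure D4:**
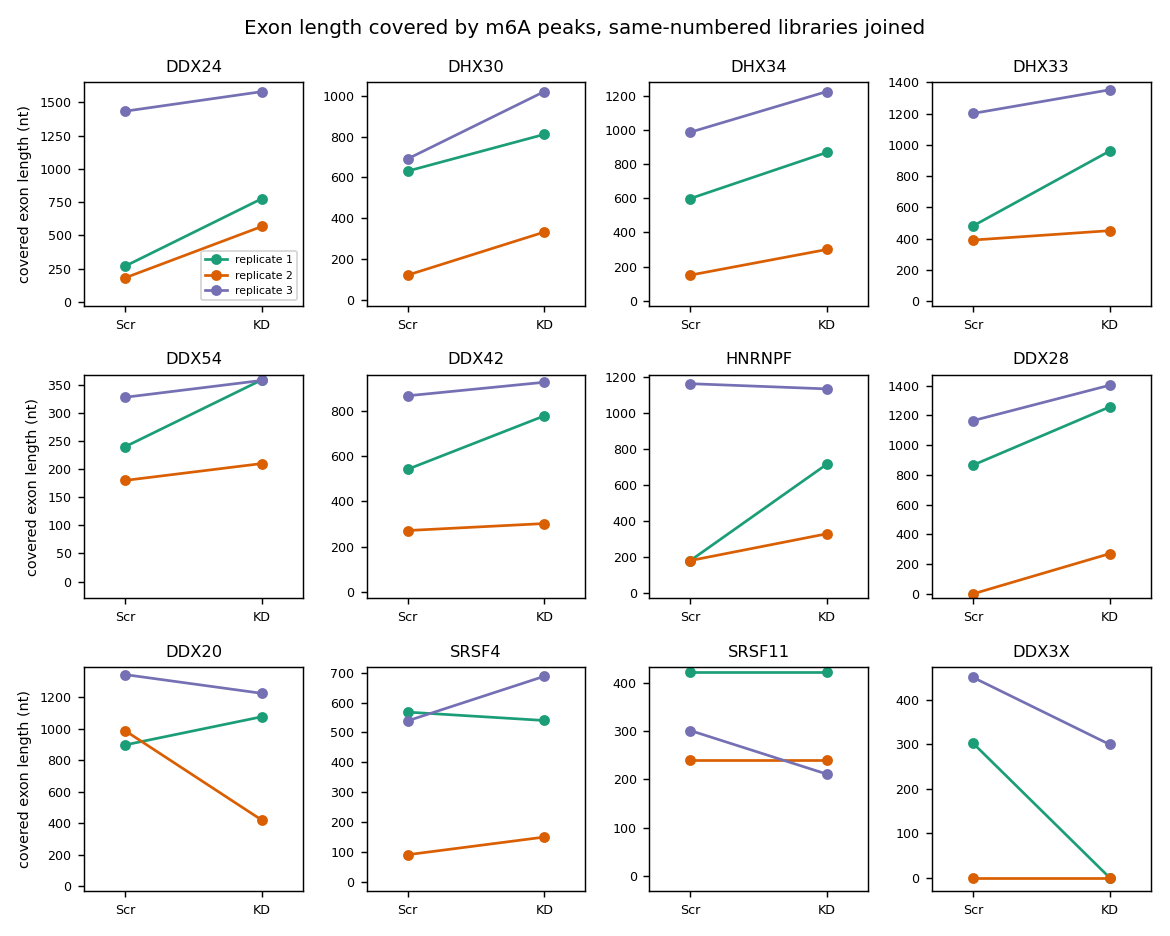
Exon length covered by m6A peaks (nt, vertical axis, scaled per panel) in the scrambled (Scr) and knockdown (KD) library of each replicate number (colours), joined by a line, for 12 genes. All 3 lines go up from Scr to KD in DDX24, DHX30, DHX34, DHX33, DDX54, DDX42 and DDX28, which had no peak in control replicate 2, while DDX20, SRSF4 and HNRNPF have lines in both directions.

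No gene passed the test of covered length. The exact permutation test over 3 against 3 libraries cannot go below 0.1, and of the 10536 genes 33 reached that value, none of them among the 74. After Benjamini-Hochberg adjustment over all genes the smallest p was 1, and 0 genes had an unadjusted p under 0.05. For peak number, 38 genes reached 0.1, again none of the 74. With libraries paired by number, an exact sign-flip test gave p = 0.25 for DDX24, DHX30, DHX33, DHX34, DDX54, DDX42, DDX28, DDX56, HNRNPDL, HNRNPUL2 and HNRNPUL2-BSCL2, the smallest value that 3 pairs allow. It is reached whenever all 3 pairs differ in the same direction, and no count over all genes stands beside it. Mean covered length was higher in the knockdown in 47 genes (63.5%, beside 65.3% of all genes) and lower in 27 (36.5%, beside 32.9%). Scaled to the covered length of each list the split was 35 (47.3%) and 39 (52.7%), beside 49.3% and 50.7% of all genes. The unscaled count of 47 was 29 without control replicate 2 and 30 without both libraries of replicate 1, counts that were not made over all genes. Groups without overlap were found in 0 of the 74 genes, beside 0.285% of all genes with the knockdown higher and 0.0285% with it lower.

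At the level of regions, 39 of the 124 (31.5%) were called in more knockdown than control libraries, beside 32.6% of all regions, and 28 (22.6%) in fewer, beside 23.1%. None had calls in each knockdown library and in no control, or the reverse, which was so for 0.129% and 0.00923% of all regions. With libraries left out, only the regions of these genes were counted, so no share over all regions stands beside the next numbers. The numbers called more and less often were 42 and 54 without knockdown replicate 1, 76 and 24 without knockdown replicate 2, and 50 and 54 without knockdown replicate 3. They were 41 and 62 without control replicate 2 and 71 and 29 without control replicate 3. Without both libraries of replicate 1 they were 16 and 25, and without those of replicate 3 they were 42 and 17. A region of DDX41, a helicase mutated in myeloid leukaemia, was called in 2 knockdown libraries and 0 controls (chromosome 5, 176943697 to 176943876, minus strand). Its other region, at 176942967 to 176943518, had peaks in both libraries of replicate 1.

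Where a gene was called in both libraries of a pair, the places of its peaks were compared. The shared bases over the bases covered in either library had a median of 0.499 in replicate 1 (39 genes), 0.556 in replicate 2 (21 genes) and 0.742 in replicate 3 (52 genes). Over all genes the medians were 0.504, 0.503 and 0.736. In replicate 3, SF3B3 and SF3B5 had the same bases in both libraries, followed by DDX55 (0.95), DDX42 (0.935), SRSF6 (0.933) and DDX23 (0.926). The lowest values of replicate 1 were those of DDX54 (0.111), HNRNPL (0.113) and HNRNPA1L2 (0.145). In DDX54 the main region, on chromosome 12 at 113596319 to 113596676 (minus strand), was missing from control replicate 1, whose peaks lay in the other regions of the gene. DHX33 had an overlap of 0.501, 0.867 and 0.7, and 391 nt at 5347197 to 5347587 of chromosome 17 (minus strand) were covered in every library.

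**Figure D5:**
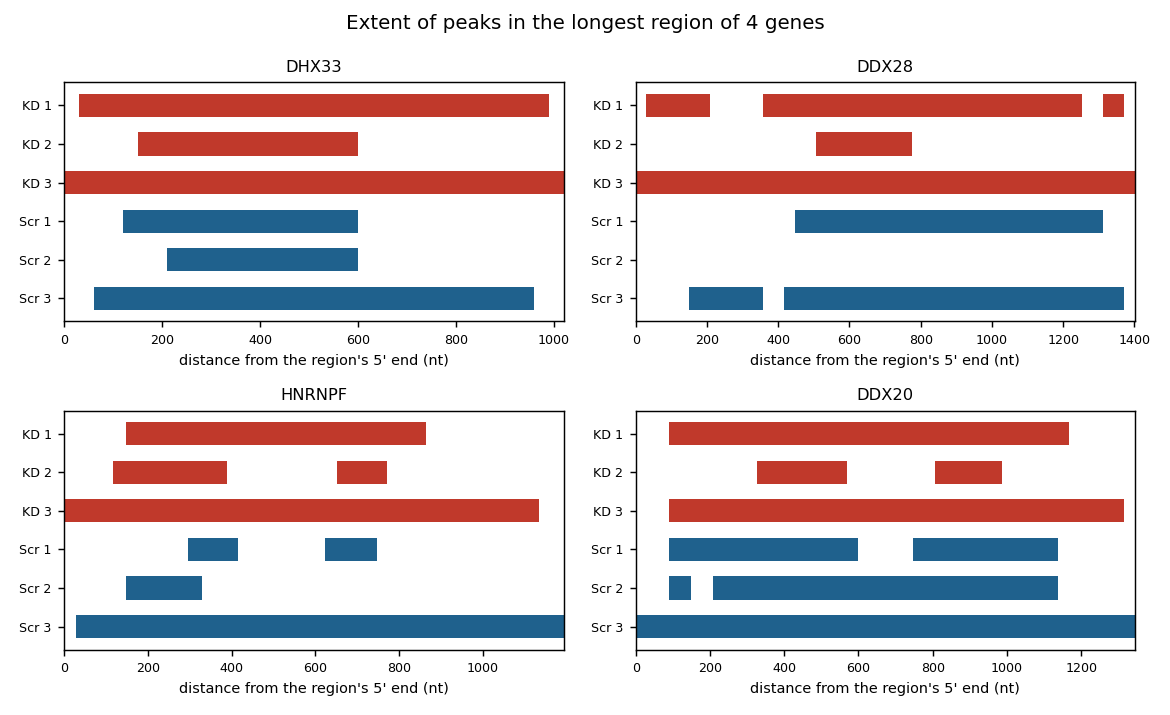
Extent of all peaks (bars) along the longest region of DHX33, DDX28, HNRNPF and DDX20, as distance in nt from the 5′ end of the region in transcript direction, for the 3 knockdown (red) and 3 control (blue) libraries. Knockdown replicate 3 spans 1020 nt in DHX33 and 1402 nt in DDX28, control replicate 2 has none in DDX28, and in DHX33 the bars of all 6 libraries share 391 nt.

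Other genes of RNA processing were counted in the same way in 5 lists, beside the 26.1% of all genes called in more and 17.1% in fewer knockdown libraries. Shares are of the genes with a peak, which 48.6% of all coding genes had. Of 20 RNA helicases outside the DDX and DHX names, 14 had a peak, 1 (7.14%) was called in more and 2 (14.3%) in fewer knockdown libraries. SUPV3L1, a helicase of mitochondrial RNA decay, was called in 2 against 1, IGHMBP2 in 2 against 3 and MTREX, the helicase of the nuclear exosome, in 0 against 1. Of 40 core spliceosome genes, 23 had a peak, 6 (26.1%) were called in more and 3 (13%) in fewer. They included PUF60 (2 against 1) and U2AF1, which reads the 3′ splice site (1 against 2). Of 29 SR-related proteins and SR kinases, 28 were matched by symbol and 20 had a peak, 5 (25%) were called in more and 2 (10%) in fewer. Among them were SRRM2 (601, 0 and 1557 nt against 0, 0 and 991 nt), SFSWAP and THRAP3 (3 against 2 each), and RBM25 (1 against 2).

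Of 41 other splicing regulators, 25 had a peak, 10 (40%) were called in more and 6 (24%) in fewer knockdown libraries. PCBP1, a binder of C-rich RNA, was called in 3 against 1, RBFOX3 in 2 against 0 and RBM5 in 0 against 2. Of 18 genes of the exon junction complex and mRNA export, 9 had a peak, 3 (33.3%) were called in more and 2 (22.2%) in fewer, with CASC3 at 3 against 2.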

How the data were processed

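Per the submitters' processing notes, the tools were CASAVA 1.8.2, TopHat2 and SAMtools, with the build hg19. The peak caller was not given in the sources used here, nor its threshold or use of input reads. The authors deposited 1 peak list per immunoprecipitate, not pooled. Per the file headers a peak has exon blocks with their strand, an Entrez gene number and a score. Values of this deposited score are at most 0.011 and were treated as p-values, only to rank peaks within a list. A RefSeq table (GRCh38.p14, names only) gave symbols for 10500 of 10536 gene numbers. Coordinates are those of the lists, counted from 1. No peak sequence was used here.

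The members and lists were chosen with earlier results of these data known. Each family's named genes were those with the largest difference in libraries called (up to 4 per direction), the 3 with the most peaks, and genes of all 6 libraries with covered length longer, or shorter, in every pair (up to 5, by mean log2 ratio). Other members were named by role, and the 17 genes whose differences were recomputed were picked, with their values known. Pathway genes were up to 3 per direction. Means were compared by exact permutation, with scripts tested on simulated data (Python 3.11.15, numpy 2.4.6, scipy 1.17.1). Depth is unknown, so no interval for it was given. Libraries with the same replicate number were taken as pairs, since each number has its own RNA type and antibody in the labels' protocol. The alternatives were the best-scored 50% of peaks, equal lists within pairs, libraries left out, positions of several genes left out, other joins, scaling, genes with 2 peaks or more, and, chosen after seeing the data, HNRNPUL2-BSCL2 left out.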

Additional observations from a re-analysis of the deposited data

How the results depend on the processing

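With only the best-scored 50% of each list, 30 genes had the longer mean covered length in the knockdown. The higher mean peak number there was found for 17 genes (30 with all peaks). In this setting 14 genes were called in more and 15 in fewer knockdown libraries (24 and 11 with all peaks), and 5 in all 6. Of regions, 19 were called in more and 19 in fewer (39 and 28 with all peaks). The differences in genes called and peaks per library were -0.333 each. With at least 2 peaks needed for a call, 14 genes were called in more and 10 in fewer knockdown libraries, and 2 in all 6. In those settings fewer calls were left by construction. Those counts, and the ones with libraries left out, are of these genes and their regions only, with no count over all genes beside them. With a library or a replicate number left out, the ranges were 29 to 62 genes with longer and 14 to 52 with more peaks in the knockdown, 11 to 44 genes called more and 5 to 29 less often there, 18 to 31 genes called in all libraries, and 16 to 76 and 17 to 62 regions called more and less often. The differences in genes called and peaks per library ran from -0.5 to 16.7 and from -7.33 to 22.7. The sign of the covered length difference turned for DDX42 (-2.78) and DHX38 (-44.1, both per 1000000 nt of the list) and, with the best-scored 50%, for HNRNPDL (-90 nt) and SRSF4 (-20 nt); the cause was not tested. With libraries left out it ran from -344 to 74.5 nt for DDX20, -38.5 to 653 for DDX28, -35.7 to 294 for DDX42, -180 to 448 for DHX38, -30 to 160 for HNRNPDL, -73.2 to 261 for HNRNPUL2 and -94.2 to 215 for SRSF4. For the other 10 of 17 genes examined it kept its sign in every alternative. Taking the replicate number as a block cannot change a difference of means in this design (346.7 nt for DDX24, 6.67 genes called, 6.33 peaks). Its p cannot go below 0.25 and so always misses the threshold, which means that this alternative could change no call. Over the other alternatives the permutation p of the 17 genes ran from 0.2 to 1. Equal list sizes within pairs, positions of several genes left out and the read-through gene left out kept every count over genes and regions within 1.5 times. With equal list sizes the difference in genes called per library was 4.33 and that in peaks 3. The lists hold no counts, so what depth limits was not measurable.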
